A study of Mus musculus with 8 samples.

Results

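The 8 genes described here belong to 1 enzyme family and were followed through 4 states of the macrophage: the dual-specificity phosphatases Dusp1, Dusp2, Dusp4, Dusp5, Dusp6, Dusp8, Dusp10 and Dusp16, which act on MAP kinases. They were taken by gene symbol, with earlier results of these data known, and all 8 of 8 were among the 11415 genes of the deposited table. RNA came from macrophages grown for 5 days in M-CSF from bone marrow of IL10-/-RAG2-/- mice on the 129S6/SvEvTac background, so every group, controls included, lacked functional Il10 and Rag2 genes. A group held 2 libraries, and its cells came from 2 independent pools. One group was left untreated. The LPS group received 1 ng/mL of bacterial lipopolysaccharide, a trigger of Toll-like receptors, for 195 min. Another group (IL-10 throughout) received that LPS together with 1 ng/mL of IL-10 over the full 195 min, and in the last group (late IL-10) IL-10 joined the LPS in the final 30 min of the 195 min. IL-10 is an anti-inflammatory cytokine, and its dose is not restated for the late group. Each gene had a mature transcript value (mRNA) and a precursor value (pre-mRNA) in every group.

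Toll-like receptors switch on the MAP kinases ERK, JNK and p38 through cascades of phosphorylation, and these kinases drive transcription and stabilisation of inflammatory messages. The Dusp phosphatases remove the activating phosphates from both the threonine and the tyrosine of the kinase loop, and many of them are themselves made in response to the kinases they silence. Dusp1, Dusp2, Dusp4 and Dusp5 encode nuclear, inducible enzymes, with Dusp1 a well known brake on p38, JNK and inflammatory cytokines in macrophages and Dusp5 selective for ERK. Dusp6 encodes a cytoplasmic enzyme selective for ERK, and Dusp8, Dusp10 and Dusp16 encode enzymes that act mainly on JNK and p38.

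The stretches just upstream of the genes are shown for 3 members, Dusp1, Dusp2 and Dusp16, because the results turn on them and on Dusp4. RefSeq sequence (GRCm38.p6) was matched for 7 of 8 members; Dusp4 was not matched. Each run is the 250 bases before the start that the RefSeq promoter table lists for the gene, 5′ to 3′, with matches to a cAMP response element (CRE, TGACGTCA) or an E-box (CACGTG) in capitals.
Dusp1 (chr17:26508473-26508722, minus strand): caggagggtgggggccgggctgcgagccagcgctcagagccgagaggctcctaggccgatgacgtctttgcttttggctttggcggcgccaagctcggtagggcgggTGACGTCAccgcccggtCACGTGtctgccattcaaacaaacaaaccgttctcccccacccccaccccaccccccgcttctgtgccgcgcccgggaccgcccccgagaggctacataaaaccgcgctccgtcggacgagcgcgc
Dusp2 (chr2:127335909-127336158, plus strand): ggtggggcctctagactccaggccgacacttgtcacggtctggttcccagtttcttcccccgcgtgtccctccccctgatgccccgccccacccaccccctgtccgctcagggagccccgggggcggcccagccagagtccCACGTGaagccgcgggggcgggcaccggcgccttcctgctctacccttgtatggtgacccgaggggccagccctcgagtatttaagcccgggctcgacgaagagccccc
Dusp16 (chr6:134792629-134792878, minus strand): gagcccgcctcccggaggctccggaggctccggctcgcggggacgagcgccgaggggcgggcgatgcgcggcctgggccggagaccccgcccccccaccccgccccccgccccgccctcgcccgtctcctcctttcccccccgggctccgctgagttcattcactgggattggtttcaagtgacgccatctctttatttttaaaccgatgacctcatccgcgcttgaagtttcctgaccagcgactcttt
Dusp1 held 1 CRE, 143 bases before the start, and 1 E-box at 126 bases. Among 8802 mouse promoters of the same length, 2.85% held the CRE and 8.69% the E-box. Dusp2 held 1 E-box, at 109 bases, and no CRE, and Dusp16 held neither. Elsewhere in the family, Dusp8 held 2 CREs, at 107 and 63 bases. Dusp5 held 2 neighbouring CArG boxes (the serum response factor motif, searched by its consensus) in the run CCATATTTGGCCTTATATGG at 82 and 72 bases, a motif found in 1.09% of promoters. None of the 7 matched members held the AP-1 motif TGANTCA (4.31% of promoters), the STAT motif TTCNNNGAA (6.15%) or a κB consensus (4.41%) in this window. Motifs were searched on both strands, and a match describes letters only. The table lists 1 start for each of these genes, and other starts were not searched. For Dusp1, Dusp8, Dusp10 and Dusp16 the RefSeq or GENCODE gene model begins farther upstream, so their windows lie inside the annotated gene. For Dusp1 and Dusp10 this holds for the GENCODE model only, for Dusp16 for the RefSeq model only, and for Dusp8 for both. The GENCODE model of Dusp5 begins within its window.

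Depth over the genes of the table ran from 21412968 to 53172133 reads per library for mRNA and from 8661271 to 31508394 for pre-mRNA. The deposited values are group means, and the 2 libraries behind each mean were worked out exactly from them. They are called A and B within each group and measure, and A in one group or measure is not tied to A in another. All levels below are normalized reads, and all changes are differences in log2(normalized reads + 1), which understates the change of low genes. Errors are limma standard errors with n = 2 libraries per group, adjusted p-values are Benjamini-Hochberg values from limma over all genes of a measure, and "rose" and "fell" mean an adjusted p under 0.05. The spread that these p-values rest on is that of 2 libraries a group and may be partly technical, and in bulk RNA fewer expressing cells and less RNA per cell cannot be told apart. Macrophage markers were present, 9 of 10 in the table, with a summed mRNA level of 508748.1 to 879139.1 across the 8 libraries. Of other cell types, 7 of 10 neutrophil and granule markers summed to 1892.5 to 3243.9, 3 of 8 T and NK cell markers (Lck, Cd28 and Cd4) to 409.1 to 5607.8 with the highest sums in untreated cells, 3 of 6 stromal and endothelial markers to 666.6 to 2174.6, 1 of 4 mast cell markers (Kit) to 1.984 to 44.47, and 0 of 4 B cell markers were in the table. Some of these moved with the groups. The macrophage sum went from 508748.1 to 520138.8 in untreated libraries to 822397.7 to 879139.1 after LPS. Of its 9 markers, however, 2 rose and 1 fell in mRNA with LPS, with a median change of -0.02, so the sum does not describe most of them. Of the 7 neutrophil markers 5 rose with LPS, and of the 3 T and NK cell markers 1 rose and 1 fell. Dendritic cell and stromal markers also moved with the groups, and their sums are given beside Dusp4. The part of any marker set in the results was not tested.

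The ranking of the family changed with treatment. Per kilobase of annotated exon, untreated cells held most Dusp1 mRNA, with a mean of 1156.4 normalized reads per kb, and the other 7 lay between 59.86 for Dusp2 and 201.8 for Dusp6. Dusp1 and Dusp6 stood apart from the next gene in both untreated libraries, while the 6 genes below overlapped their neighbours. After LPS, Dusp2 moved from last to first at 5600.2 per kb, ahead of Dusp4 at 1868.9, Dusp1 at 1208.9 and Dusp16 at 788.4, and none of these 4 overlapped the next. With IL-10 throughout, Dusp1 (8587.5 per kb) and Dusp2 (6762.8 per kb) overlapped at the top. With late IL-10, Dusp1 led at 23403.9 per kb, with both libraries above both libraries of Dusp2 (11375.6 per kb). Dusp10 was lowest in the 3 LPS-treated groups, at 25.78 to 34.69 per kb, with libraries that overlapped those of Dusp8 in both IL-10 groups. Exon lengths are from GENCODE M21, which may differ from the annotation the authors used.

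**Figure D1:**
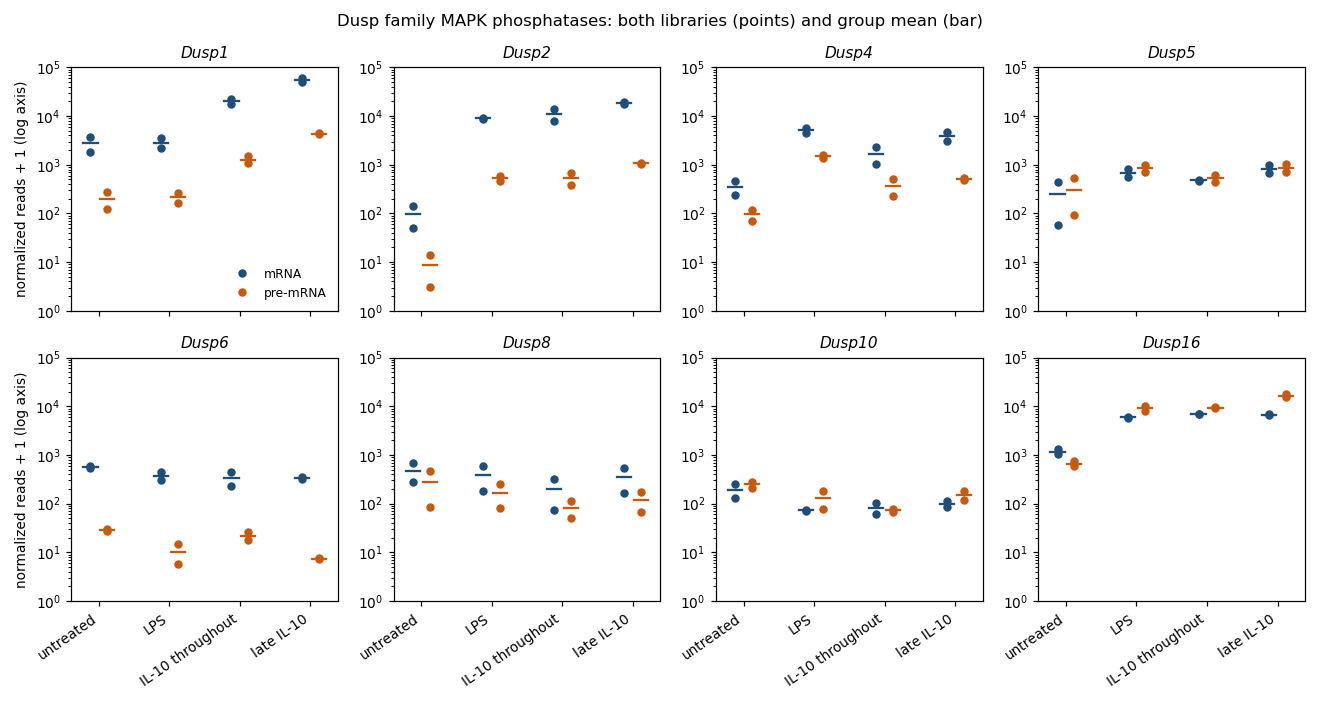
Normalized reads + 1 (log axis) of each gene in the 4 groups, mRNA in blue and pre-mRNA in orange; points are the 2 libraries and bars the group mean. Dusp2, Dusp4 and Dusp16 stepped up with LPS in both measures, Dusp1 stepped up only in the 2 groups given IL-10, and Dusp8 had widely separated libraries in every group.

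LPS raised 3 of the 8 phosphatases in both measures, Dusp2, Dusp4 and Dusp16, and lowered none past the limma threshold, with 1 member lower at an unadjusted p under 0.05 in each measure. Among all genes, 35.7% passed for mRNA and 44% for pre-mRNA, so 3 of 8 is close to the share of all genes. The 8 members had a median mRNA change of 1.11 beside 0.01 over all genes tested. Their libraries did not overlap between LPS and untreated cells for 6 of 8 genes in each measure, beside 68.8% of all genes for mRNA and 72.6% for pre-mRNA.

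Dusp2 (chr2:127336159-127338376, GRCm38), which encodes a nuclear phosphatase of activated leukocytes, had the largest rise of the family. Mature Dusp2 was at 49.61 and 144 normalized reads in untreated libraries A and B and at 8832.5 and 9278.5 after LPS. Its pre-mRNA was at 2.131 and 13.11 in untreated libraries, only 4 reads in library A, and at 465.3 and 583 after LPS. Every LPS library lay far above both untreated libraries in each measure. The group mean of mRNA was 93.6 times higher, a change of 6.72 ± 0.49 (adjusted p = 0.00019), and the pre-mRNA change was 6.29 ± 0.64 (adjusted p = 0.00032).

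Dusp4 (chr8:34807297-34819894), a nuclear phosphatase of ERK and JNK, came next. Its mRNA went from 236.2 and 467.9 to 5784.6 and 4457.2, and its pre-mRNA from 70.32 and 118 to 1396.0 and 1575.0. The LPS libraries lay far above the untreated ones in both measures. The changes were 3.93 ± 0.47 for mRNA (adjusted p = 0.0013), 14.5 times the untreated mean, and 4.01 ± 0.40 for pre-mRNA (adjusted p = 0.0003). The summed mRNA level of the 5 dendritic cell markers in the table (Zbtb46, Xcr1, Itgax, Ccr7 and Batf3) moved alongside, from 1363.3 to 2910.6 in untreated libraries to 9528.0 to 17954.7 after LPS, and to 8944.4 to 16008.2 under late IL-10 but only 3057.1 to 4661.1 under IL-10 throughout. Of these 5 markers 4 rose in mRNA with LPS. None passed in mRNA for IL-10 throughout against LPS, where 3 were lower at an unadjusted limma p under 0.05. The 3 stromal and endothelial markers (Pdgfra, Cdh5 and Kdr) summed to 1223.8 to 2174.6 in untreated libraries and 1139.6 to 1963.8 after LPS, and to 666.6 to 860.7 under IL-10 throughout and 1352.9 to 1906.1 under late IL-10. Their sum hid changes of single markers, since 2 of the 3 rose in mRNA with LPS, with a median change of 2.46.

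Dusp16 (chr6:134715468-134792625), whose product acts on JNK and p38, rose least of the 3 in mRNA and with the smallest error. Its mRNA was at 1035.9 and 1299.6 in untreated cells and at 5976.3 and 5884.5 after LPS, a change of 2.35 ± 0.18 (adjusted p = 0.00023). Its pre-mRNA went from 736.2 and 597.4 to 10177.1 and 8134.1, a change of 3.78 ± 0.25 (adjusted p = 6.1e-05). The precursor therefore rose 13.7-fold where the mature transcript rose 5.08-fold, a difference tested with the precursor ratios.

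Dusp1 (chr17:26505591-26508472 in RefSeq), the best known of the family in macrophages, did not differ between LPS at 195 min and untreated cells beyond its error. Its mRNA was at 1801.9 and 3686.4 in untreated libraries and at 3507.4 and 2230.0 after LPS, so the 2 groups overlapped fully. The mRNA change was 0.12 ± 0.39, with a 95% interval of -0.80 to 1.03, and the pre-mRNA change was 0.20 ± 0.41, with an interval of -0.75 to 1.15. The GENCODE model of Dusp1 includes 1 long transcript that overlaps Ergic1 on the other strand, and how reads of such overlaps were assigned is not given in the sources used here.

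Dusp5 (chr19:53529109-53542431), the nuclear ERK phosphatase, had higher LPS values that did not pass. Mature Dusp5 was at 56.23 and 433.2 in untreated libraries and at 559.5 and 822.2 after LPS, and its pre-mRNA at 90.56 and 524.6 and then 1011.7 and 718. The untreated libraries thus lay 2.92 log2 units apart for mRNA and 2.52 for pre-mRNA, against a median gap over all genes of 0.33 and 0.32. The changes were 2.11 ± 0.83 (adjusted p = 0.089) and 1.96 ± 0.71 (adjusted p = 0.057). The size rested on the untreated libraries: without library A the changes were 0.65 (adjusted p = 0.23) and 0.70 (adjusted p = 0.22), and without library B 3.57 (adjusted p = 0.0038) and 3.22 (adjusted p = 0.0031). With limma-voom on all libraries they passed, at 2.36 (adjusted p = 0.049) and 2.31 (adjusted p = 0.021).

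The ERK phosphatase Dusp6 and the JNK and p38 phosphatase Dusp10 had lower values after LPS that also missed the threshold. Dusp6 mRNA (chr10:99263231-99267489) was at 596.7 and 532.5 in untreated cells and at 305 and 435.6 after LPS, a change of -0.63 ± 0.35 (adjusted p = 0.2). Its pre-mRNA, at 26.1 and 29.14 and then 4.7 and 13.5, changed by -1.65 ± 0.63 (adjusted p = 0.067). Neither measure of Dusp6 overlapped between the groups. Dusp10 mRNA (chr1:184013302-184075636) was at 127 and 249.5 and then at 71.1 and 72.84, a change of -1.30 ± 0.43 (adjusted p = 0.054), and its pre-mRNA changed by -1.04 ± 0.45 (adjusted p = 0.095). Scaled to total reads, which lowers the median LPS change of all genes by 0.74 for mRNA and 0.91 for pre-mRNA, both genes passed in both measures, with adjusted p-values of 0.007 to 0.029. Dusp6 pre-mRNA passed as well with a pseudocount of 8 (-1.11, adjusted p = 0.045) and with no filter on low values (adjusted p = 0.036). Single libraries moved these values both ways. Dusp6 pre-mRNA was at -2.33 without LPS library B (adjusted p = 0.035) and at -0.98 without LPS library A (adjusted p = 0.32), and Dusp6 mRNA at -0.37 without LPS library A (adjusted p = 0.54). Dusp10 mRNA was at -1.78 without untreated library A (adjusted p = 0.043) and at -0.81 without untreated library B (adjusted p = 0.24). Dusp10 pre-mRNA was at -1.66 without LPS library A (adjusted p = 0.023) and at -0.42 without LPS library B (adjusted p = 0.42).

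Dusp8 (chr7:142079490-142095843), a JNK and p38 phosphatase better known from brain and heart, could not be read for a change in any comparison. Its 2 libraries lay 1.20 to 2.40 log2 units apart in every group and measure, where the median gap over all genes was 0.32 to 0.47. Its mRNA was at 280.5 and 667.8 in untreated cells, 601.7 and 183.5 after LPS, 73.28 and 316.7 under IL-10 throughout, then 162.4 and 545 under late IL-10. All 4 groups overlapped, and no change of Dusp8 came within reach of the threshold, with adjusted p-values of 0.61 to 1.

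**Figure D2:**
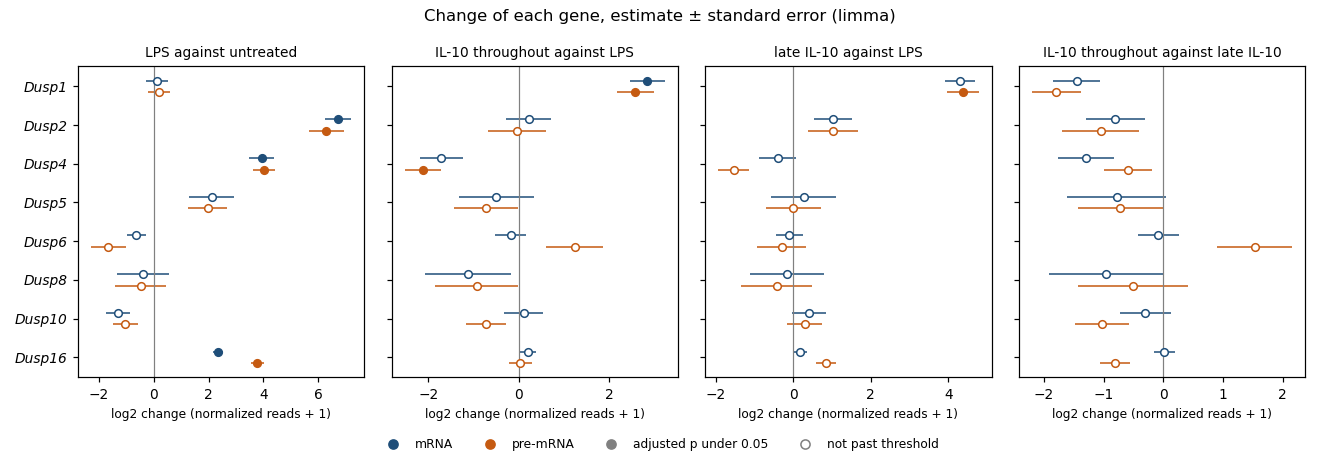
Change of each gene in log2(normalized reads + 1) ± standard error for the 4 comparisons, mRNA in blue and pre-mRNA in orange; filled points passed an adjusted p under 0.05. Dusp2, Dusp4 and Dusp16 passed for LPS, Dusp1 for IL-10 throughout in both measures and for late IL-10 in pre-mRNA, and Dusp4 pre-mRNA fell with IL-10 throughout.

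IL-10 given throughout raised 1 member, Dusp1, and lowered the precursor of another, Dusp4. Among all genes 2.24% passed for mRNA and 6.7% for pre-mRNA. Dusp1 mRNA was at 3507.4 and 2230.0 with LPS alone and at 22998.8 and 17757.3 with IL-10 throughout, 7.1 times the LPS mean. Its pre-mRNA was at 165.7 and 265.9 and then at 1487.5 and 1069.0, 5.92 times the mean. Every IL-10 library lay well above every LPS library. The changes were 2.85 ± 0.39 (adjusted p = 0.016) for mRNA and 2.58 ± 0.41 (adjusted p = 0.016) for pre-mRNA. The calls depended on single libraries: the mRNA change was 2.53 without LPS library B (adjusted p = 0.11), 2.67 without IL-10 library A (adjusted p = 0.11) and 3.04 without IL-10 library B (adjusted p = 0.078). The pre-mRNA change was 2.24 without LPS library A (adjusted p = 0.079), 2.34 without IL-10 library A (adjusted p = 0.084) and 2.82 without IL-10 library B (adjusted p = 0.071), and with no filter on low values its adjusted p was 0.052.

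Dusp4, raised by LPS, stood lower with IL-10 throughout. Its pre-mRNA was at 1396.0 and 1575.0 with LPS and at 231.6 and 499.4 with IL-10 throughout, with no overlap. It fell by 2.12 ± 0.40 on the log2 scale (adjusted p = 0.025), a mean 4.06-fold lower. Its mRNA was at 5784.6 and 4457.2 and then at 1044.6 and 2313.3, also without overlap, and the change of -1.71 ± 0.47 did not pass (adjusted p = 0.15). Such a lack of overlap was common in this comparison. It held for 4 of 8 members in mRNA and 5 of 8 in pre-mRNA, beside 41.9% and 50% of all genes. The Dusp4 pre-mRNA change was -2.21 without LPS library A (adjusted p = 0.1) and -1.57 without IL-10 library A (adjusted p = 0.099). It was -1.66 (adjusted p = 0.097) when scaled to total reads, which raises the median of all genes by 0.46, and with no filter on low values the adjusted p was 0.072.

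The other LPS-raised phosphatases kept levels near those with LPS alone. Dusp2 mRNA was at 13842.9 and 8028.0 with IL-10 throughout, around its LPS values, a change of 0.22 ± 0.49 with an interval of -0.93 to 1.37. Dusp16 mRNA was at 6831.6 and 6794.3, a change of 0.20 ± 0.18 with a narrow interval of -0.22 to 0.62, and its pre-mRNA, at 9077.0 and 9590.5, changed by 0.04 ± 0.25. The remaining mRNA changes were -0.50 ± 0.83 for Dusp5, -0.18 ± 0.35 for Dusp6, -1.12 ± 0.95 for Dusp8 and 0.11 ± 0.43 for Dusp10, none past the threshold. Pre-mRNA changes of the same genes were -0.72 ± 0.71, 1.24 ± 0.63, -0.93 ± 0.92 and -0.72 ± 0.45 in that order, also none past it.

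IL-10 for the last 30 min raised the Dusp1 precursor, the 1 member value that passed in this comparison. Dusp1 pre-mRNA was at 4454.8 and 4255.1, against 165.7 and 265.9 with LPS alone, 20.2 times the mean. The change was 4.37 ± 0.41 (adjusted p = 0.004), and it passed under all 15 alternative settings, with adjusted p-values of 0.0033 to 0.039. Of 11131 genes 1.04% passed, and Dusp1 held rank 14 by size of rise and 21 by p. Its mRNA was at 49732.3 and 61342.4, against 3507.4 and 2230.0 with LPS alone, 19.4 times the mean. That mRNA change, 4.30 ± 0.39, ranked 2 of 11415 genes both by size and by p, and its 2 late libraries lay above all 6 libraries of the other groups. It did not pass the adjustment over all genes (adjusted p = 0.12). For mRNA 0% of genes passed in limma and 0 in limma-voom, while 92 were higher and 15 lower at an unadjusted p under 0.05. Scaled to total reads, the Dusp1 mRNA change was 4.29 with an adjusted p of 0.044. Both IL-10 comparisons use the same LPS libraries, so the 2 sets of Dusp1 values are not independent.

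Late IL-10 libraries were also clear of the LPS libraries, without passing, for Dusp2, Dusp10 and Dusp16 mRNA and for Dusp2, Dusp4 and Dusp16 pre-mRNA. With Dusp1 that made 4 of 8 members in each measure, beside 12.1% of all genes for mRNA and 27.2% for pre-mRNA. Dusp2 mRNA was at 19449.5 and 17339.2 and its pre-mRNA at 1075.5 and 1049.2, 2.03 times the LPS mean in each, with changes of 1.02 ± 0.49 (adjusted p = 1) and 1.03 ± 0.64 (adjusted p = 1). Dusp16 pre-mRNA was at 17593.1 and 15185.8 against 10177.1 and 8134.1, a change of 0.85 ± 0.25 (adjusted p = 0.29), while its mRNA, at 6931.6 and 6495.0, changed by 0.18 ± 0.18. Dusp4 pre-mRNA was at 482.1 and 546.5 against 1396.0 and 1575.0, a change of -1.53 ± 0.40 (adjusted p = 0.19), beside a mRNA change of -0.40 ± 0.47. In these values the precursors of Dusp16 and Dusp4 lay farther from LPS than their mature transcripts did, a difference whose tests are given with the precursor ratios. Dusp5 mRNA changed by 0.27 ± 0.83, Dusp6 by -0.10 ± 0.35, Dusp8 by -0.16 ± 0.95 and Dusp10 by 0.41 ± 0.43.

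Set directly against each other, the 2 IL-10 schedules gave no call for any of the 8 genes in limma, and limma-voom gave 0 as well. Among all genes 1.09% passed for mRNA and 2.96% for pre-mRNA. At an unadjusted p under 0.05, 2 members were lower with IL-10 throughout in mRNA, and in pre-mRNA 1 was higher and 2 were lower. Dusp1 was the nearest to a call. Its mRNA was 2.73-fold lower with IL-10 throughout, a change of -1.45 ± 0.39 (adjusted p = 0.16), and its pre-mRNA 3.41-fold lower, a change of -1.79 ± 0.41 (adjusted p = 0.061). The pre-mRNA value passed in a fit of the 2 groups alone (adjusted p = 0.048), without LPS library A (adjusted p = 0.048) and without LPS library B (adjusted p = 0.046), each time at -1.79. The others under the unadjusted limit were Dusp4 mRNA at -1.30 ± 0.47 (adjusted p = 0.28), Dusp16 pre-mRNA at -0.81 ± 0.25 (adjusted p = 0.12) and Dusp6 pre-mRNA at 1.53 ± 0.63 (adjusted p = 0.22). The Dusp6 precursor values were small, 16.96 and 24.81 under the longer schedule, 6.181 and 6.733 under the late one.

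The ratio of precursor to mature signal was read within each gene across the groups, and its level is not compared between genes. Pre-mRNA per 100 mRNA, from the group means, was 6.27 to 7.84 for Dusp1, 4.85 to 7.87 for Dusp2 and 1.89 to 6.18 for Dusp6. It was 13.1 to 29 for Dusp4, 33.2 to 57.5 for Dusp8, 105 to 126 for Dusp5 and 89.4 to 181 for Dusp10. The Dusp1 ratio thus stayed in a narrow range while its mRNA mean ran from 2744.1 in untreated cells to 55537.4 with late IL-10. Dusp16, the longest gene of the 8 with a span of 77.2 kb, went from 57.1 in untreated cells to 154 after LPS, 137 under IL-10 throughout, and 244 under late IL-10 treatment. The measures were normalized separately, so a ratio compares groups within a gene and not the numbers of molecules, and it also depends on intron length.

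The precursor change was tested against the mature change in one limma fit of both measures, a fit that takes no account of both measures sharing 1 RNA sample. For LPS against untreated cells Dusp16 was the 1 member that passed, with its precursor changed by 1.42 ± 0.28 more than its mRNA (adjusted p = 0.032), where 1.24% of all genes passed. The size of the difference was 1.25 to 1.59 under the alternatives, but the call was not firm. It was lost when scaled to total reads (1.25, adjusted p = 0.091), in the fit of the 2 groups alone (1.42, adjusted p = 0.18) and without 13 of the 16 libraries in turn (1.26 to 1.59, adjusted p of 0.051 to 0.13). The 3 libraries whose omission kept it were LPS pre-mRNA library B and both late IL-10 pre-mRNA libraries. No member passed for IL-10 throughout against LPS (0.0629% of all genes passed), late IL-10 against LPS (0.135%) or IL-10 throughout against late IL-10 (0.494%). At an unadjusted p under 0.05 there were 0 for the first of these, and the others were 0.67 ± 0.28 for Dusp16 with late IL-10 (adjusted p = 1), and -0.83 ± 0.28 for Dusp16 (adjusted p = 0.37) and 1.61 ± 0.65 for Dusp6 (adjusted p = 0.57) between the IL-10 schedules. The Dusp4 difference with late IL-10 was -1.13 ± 0.67, with an unadjusted p of 0.12 and an adjusted p of 1.

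**Figure D3:**
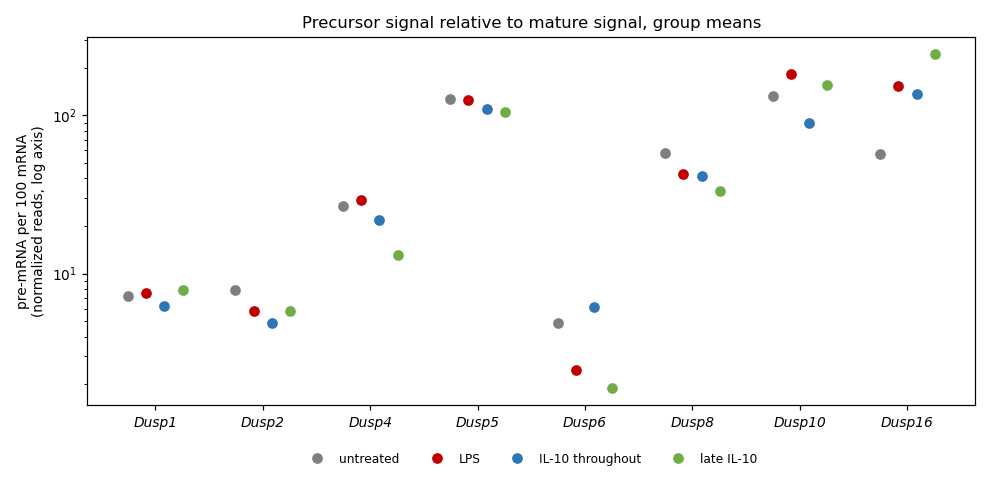
Pre-mRNA normalized reads per 100 mRNA normalized reads (log axis) from the group means of each gene, 1 point per group. Dusp1 stays between 6.27 and 7.84 in all groups, while Dusp16 runs from 57.1 in untreated cells to 244 with late IL-10.

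The wider MAP kinase pathway was read from 9 lists of 123 genes, of which 107 were tested for mRNA and 102 for pre-mRNA. With LPS 30 rose and 18 fell in mRNA, 44.9% of those tested beside 35.7% of all genes, and in pre-mRNA 31 rose and 18 fell, 48% beside 44%. Of 15 other dual-specificity phosphatases 1 rose and 6 fell, with a median of -0.66. Dusp3, which acts on ERK and JNK, fell by 1.52 ± 0.18 (adjusted p = 0.0012), and Ssh2, a cofilin phosphatase, fell by 2.25 ± 0.33 (adjusted p = 0.0028). Of 8 phosphatases of other classes that act on MAP kinases 4 rose and none fell, among them the catalytic subunit Ppp2cb (1.13 ± 0.17, adjusted p = 0.0034) and Ppm1b (1.58 ± 0.37, adjusted p = 0.017).

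The kinases themselves moved in both directions. Of 9 MAP kinases 2 rose, the p38 isoform Mapk11 (2.42 ± 0.31) and the atypical kinase Mapk6 (2.01 ± 0.47), and of 6 MAP2 kinases 1 rose, Map2k1, which activates ERK (1.57 ± 0.36). The 19 MAP3 kinases and partners split into 5 up and 5 down, with Nfkb1, whose precursor protein holds the kinase Map3k8, up by 3.92 ± 0.24 and Map3k5 up by 1.95 ± 0.23. The 5 that fell were Map3k1 (-1.29 ± 0.16), Map3k3 (-0.81 ± 0.18), Map3k4 (-2.12 ± 0.38), Map3k14 (-2.19 ± 0.63) and Tab1 (-2.07 ± 0.41). Of 10 kinases activated by MAP kinases 3 rose and 3 fell, and Mapkapk2, the main p38 effector, rose by 3.19 ± 0.28 and Rps6ka4 by 1.56 ± 0.16. The 3 that fell were Mknk1 (-1.27 ± 0.28), Mknk2 (-2.97 ± 0.75) and Rps6ka1 (-1.33 ± 0.38). Of 13 inhibitors of the ERK pathway 4 rose and 1 fell, with Spred1 up by 3.25 ± 0.44 and Spry4 up by 4.21 ± 0.77 from a mean of 1.241 to 33.67 normalized reads. No gene of the deposited table had fewer than 11 reads in an LPS mRNA library. A rise from a level as low as that of Spry4 could therefore be counted, while a fall to such a level could not. Of 20 early transcription factors 7 rose and 1 fell, led by Egr2 (4.60 ± 0.32) and Ets2 (4.24 ± 0.35). Of 7 mRNA decay factors 3 rose and 2 fell, with the RNase Zc3h12a up by 3.36 ± 0.22 and Zfp36, which binds AU-rich messages, up by 1.89 ± 0.20. The 2 that fell were Zfp36l1 (-3.46 ± 0.49) and Zfp36l2 (-2.93 ± 0.37).

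With IL-10 the pathway lists held few calls. For IL-10 throughout against LPS 2 genes rose and 2 fell in mRNA, 3.74% beside 2.24% of all genes. Tnip2, a partner of Nfkb1 and Map3k8, rose by 1.07 ± 0.17 (adjusted p = 0.026), and Fos, an AP-1 subunit, rose by 2.56 ± 0.42 (adjusted p = 0.034). The rise of Fos was from a level that LPS alone had lowered by 2.46 ± 0.42 against untreated cells (adjusted p = 0.0055). The kinase Rps6ka5, which phosphorylates CREB and histone H3, fell by 2.30 ± 0.26 (adjusted p = 0.0093), and Egr2 fell by 2.61 ± 0.32 (adjusted p = 0.011). In pre-mRNA 2 rose and 3 fell, 4.9% beside 6.7%. The risers were Dusp7 (1.35 ± 0.27), an ERK phosphatase outside the 8, and Map3k14 (1.42 ± 0.32). LPS alone had lowered both of these precursors against untreated cells. Those changes were -1.34 ± 0.27 for Dusp7 (adjusted p = 0.0057) and -3.07 ± 0.32 for Map3k14 (adjusted p = 0.00034). The fallers were Dusp22 (-2.20 ± 0.33), Map3k5 (-1.55 ± 0.30) and Rps6ka5 (-1.70 ± 0.33). Late IL-10 raised 2 precursors, Tnip2 (1.67 ± 0.22, adjusted p = 0.014) and Dusp12 (2.08 ± 0.26, adjusted p = 0.013), 1.96% of those tested beside 1.04% of all genes, and no mRNA. Between the schedules Rps6ka5 mRNA (-2.22 ± 0.26), Map2k3 pre-mRNA (-1.42 ± 0.21) and Dusp22 pre-mRNA (-1.91 ± 0.33) were lower with IL-10 throughout. Those calls are 0.935% of the listed genes for mRNA beside 1.09% of all genes, and 1.96% for pre-mRNA beside 2.96%, at or below the background.

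**Figure D4:**
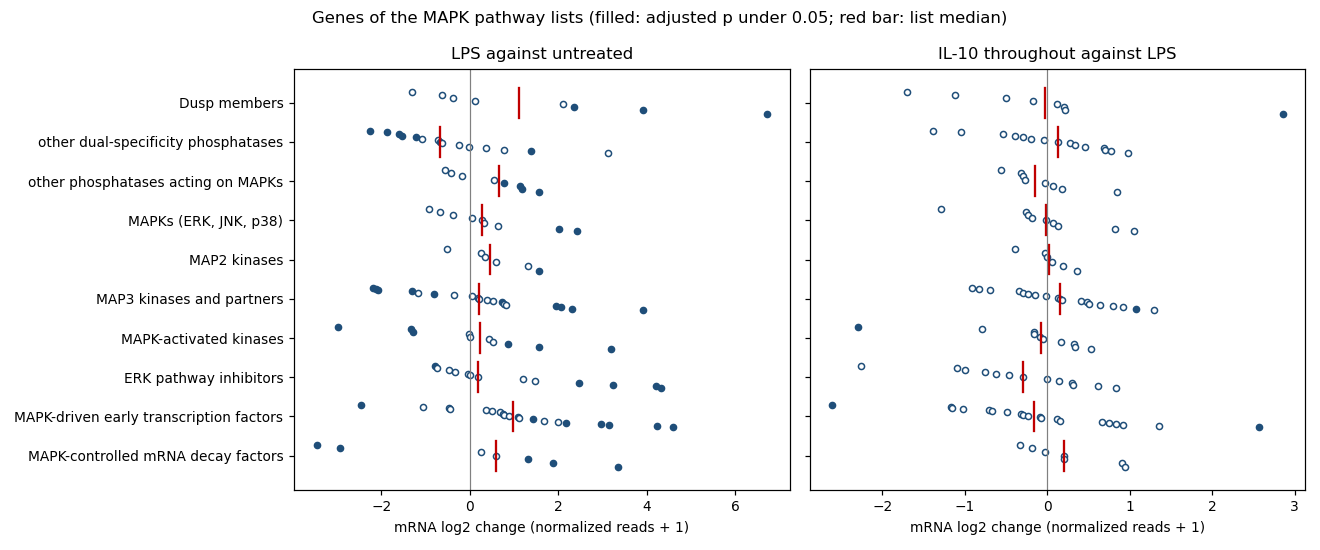
Change in mRNA in log2(normalized reads + 1) for every tested gene of the Dusp members and the 9 pathway lists, for LPS against untreated (left) and IL-10 throughout against LPS (right); filled points passed an adjusted p under 0.05 and red bars are list medians. Calls are many and in both directions on the left, and on the right they are Dusp1, Tnip2 and Fos above 0 and Rps6ka5 and Egr2 below.

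The members differed in how closely other genes followed them over the 8 group means. Likeness was the Euclidean distance between log2 profiles centred within each measure, among 9515 genes with a mean of at least 50 in both measures, and it is a description over 8 values. Dusp1 had no close neighbour: the nearest were Sema4c, which encodes a semaphorin, at 1.46, the repressor gene Etv3 at 2.02 and the repressor gene Nfil3 at 2.16. Etv3 mRNA, for example, had means of 7673.6, 11350.9, 56043.6 and 43185.6 across the untreated, LPS, throughout and late groups. Dusp2 lay nearest to Tnfaip3, which encodes the ubiquitin-editing inhibitor A20, at 0.57, then the predicted gene Gm6377 at 0.95 and the cytokine gene Tnfsf9 at 1.11. Dusp4 lay nearest to Layn at 0.63, Spryd7 at 0.79 and Ppap2b at 0.79, which also combined a rise with LPS and a lower mean with IL-10 throughout. Layn mRNA had means of 175.2, 2259.0, 685 and 2312.4 in the same order. Dusp16 lay nearest to Gas7 at 0.52 and to Ebi3 at 0.70. Dusp5, Dusp6, Dusp8 and Dusp10, whose profiles were flatter, had their nearest genes at 0.21 to 0.26: Bcl2l1, Galnt6, Mbp and Flt3l in that order. Dusp6 itself had a pre-mRNA mean under 50.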

How the data were processed

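Total RNA of 8 libraries, 2 per group, was sequenced after ribosomal depletion with a directional kit, per the labels' protocols. The table deposited by the authors lists 11415 genes and has 1 mRNA and 1 pre-mRNA column per group, 8 columns in all. The deposited signal values are normalized reads, each the mean of 2 libraries' read counts divided by size factors, a reading taken from the values themselves. The pre-mRNA columns, handled as a score with a scale of their own, were deposited in the same form. Trim Galore, DESeq and build mm10 are named per the submitters' processing notes. Not given in the sources used here are the aligner, the counter, the gene annotation and how reads were assigned to pre-mRNA. The smallest LPS mRNA count in the table was 11, so genes with less are not in it.

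Both libraries' reads were solved from each mean for 100% of values, each to within a relative error of 5.2e-15 and with a single solution. Tested on 3 simulated columns of 8000 genes, the method returned 100% of counts. Values as log2(normalized reads + 1) were fitted with limma-trend 3.58.1 (R 4.3.3), 8 libraries of a measure together, group as the only term, genes with a mean of at least 1 (11415 mRNA, 11131 pre-mRNA; all 8 members in both). p-values were Benjamini-Hochberg adjusted over all genes, with a threshold of 0.05, and 95% intervals used limma's moderated degrees of freedom. Alternatives were pseudocounts of 0.5 and 8, no filter, a minimum mean of 20, scaling to total reads, limma-voom on the solved reads, the 2 compared groups alone, and each library left out.

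The members and lists were chosen with earlier results of these data known. The named genes were the 8 members, up to 2 genes of each pathway list with the smallest adjusted p per comparison and measure among those past the threshold, and the 3 genes nearest to each member, not all of which are reported here. Genes whose mRNA fell with LPS are also named for 3 lists. These are MAP3 kinases and partners, kinases activated by MAP kinases, and mRNA decay factors. Gene positions are from GENCODE M21 and RefSeq on GRCm38, the build named mm10 by the submitters.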

Additional observations from a re-analysis of the deposited data

How the results depend on the processing

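The changes of Dusp2, Dusp4 and Dusp16 with LPS, in both measures, and of Dusp1 pre-mRNA with late IL-10 kept their direction and passed under each of 15 alternatives. Counted here are all mRNA and pre-mRNA changes of the members and the 4 precursor-minus-mature changes that the text prints with an unadjusted p under 0.05, 68 in all; the other precursor-minus-mature changes, none called, are not included. Of 1043 values of these under the alternatives, 963 kept direction and side of the threshold, 26 lost a call, 17 gained one and 37 changed sign, and none of those 37 was called. Scaling to total reads moved the median change of all genes by -0.74 (mRNA) and -0.91 (pre-mRNA) with LPS, 0.25 and 0.46 for IL-10 throughout against LPS and 0.26 and 0.43 for IL-10 throughout against late IL-10. Under it 5 members passed with LPS in each measure (Dusp6 and Dusp10 fell), 0 in the precursor-minus-mature test with LPS, 1 in pre-mRNA with IL-10 throughout (Dusp1) and 1 in mRNA with late IL-10 (Dusp1). Dusp1 then stood at -0.63 and -0.72 with LPS, Dusp2 pre-mRNA at 0.43 and Dusp6 mRNA at 0.08 with IL-10 throughout, and Dusp6 mRNA at 0.19 between the IL-10 schedules. It also moved the rising share of calls from 53.8% to 21.1% and from 50.7% to 20.9% with LPS, from 53.1% to 63.3% and from 36.5% to 52.9% with IL-10 throughout, and from 25.5% to 40.9% for pre-mRNA between the schedules. In fits of the 2 groups alone 0 members passed the precursor-minus-mature test with LPS and 1 passed in pre-mRNA between the schedules, and with no filter on low values 0 passed in pre-mRNA with IL-10 throughout. Leaving out each library gave 0 to 1 members in the precursor-minus-mature test with LPS, 0 to 1 in mRNA and 0 to 2 in pre-mRNA with IL-10 throughout, and 0 to 1 in pre-mRNA between the schedules.

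Among these 68, the values that changed sign when 1 library was left out were all uncalled. With LPS they ran from -0.40 to 0.63 (Dusp1 mRNA), -0.38 to 0.78 (Dusp1 pre-mRNA), -1.23 to 0.47 (Dusp8 mRNA) and -1.68 to 0.72 (Dusp8 pre-mRNA). With IL-10 throughout they ran from -0.17 to 0.61 (Dusp2 mRNA), -0.42 to 0.37 (Dusp2 pre-mRNA), -0.64 to 0.28 (Dusp6 mRNA), -0.24 to 0.47 (Dusp10 mRNA) and -0.13 to 0.20 (Dusp16 pre-mRNA). With late IL-10 they ran from -0.01 to 0.55 (Dusp5 mRNA), -0.30 to 0.31 (Dusp5 pre-mRNA), -0.36 to 0.16 (Dusp6 mRNA), -0.96 to 0.39 (Dusp6 pre-mRNA), -1.03 to 0.71 (Dusp8 mRNA), -1.28 to 0.42 (Dusp8 pre-mRNA) and -0.32 to 0.92 (Dusp10 pre-mRNA). Between the schedules they ran from -0.54 to 0.38 (Dusp6 mRNA), -2.01 to 0.09 (Dusp8 mRNA), -1.18 to 0.18 (Dusp8 pre-mRNA), -0.65 to 0.06 (Dusp10 mRNA) and -0.02 to 0.07 (Dusp16 mRNA).

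The number of all genes past the threshold moved more. With LPS it was 4080 for mRNA (1860 to 5699 under the alternatives) and 4902 for pre-mRNA (3150 to 5919). With IL-10 throughout it was 256 (43 to 293) and 746 (62 to 1158), with late IL-10 0 (0 to 3) and 116 (29 to 132), and between the schedules 124 (0 to 164) and 329 (1 to 604). For the precursor-minus-mature test it was 138 (42 to 239), 7 (0 to 9), 15 (0 to 15) and 55 (7 to 68) in the same order. The cause of these shifts was not tested. No paired analysis was possible because the columns carry no replicate number. Few reads lay behind the precursors of Dusp2 in untreated cells, with 4 reads in library A, and of Dusp6.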
